A study of Homo sapiens with 6 samples.

Results

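Chaperonins are barrel-shaped protein folding machines, and human cells use one kind in the cytosol and another in mitochondria. The 10 genes described here were chosen by name, with earlier results of these data known, out of the 25420 genes with an annotated 3′ UTR. They are the 8 subunits of the cytosolic complex TRiC/CCT (TCP1, CCT2, CCT3, CCT4, CCT5, CCT6A, CCT7 and CCT8) and the mitochondrial pair HSP60 (HSPD1) and HSP10 (HSPE1). All 10 had reads in each library and passed the filter on low counts. The samples were MOLM-13 cells, an established human acute myeloid leukaemia cell line. In the treated group the cells were kept for 2 h with 10 µM C646, a small molecule that competes with acetyl-CoA in the acetyltransferases CBP and p300, and in the control group for 2 h with the solvent DMSO. Both groups received 100 µM 4-thiouridine (4sU) for the last 1 h, so that C646 was the difference between them, and there were 3 replicates each. The question of the comparison was which transcripts changed in their synthesis soon after CBP and p300 were inhibited.

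TRiC is built from stacked rings in which each of the 8 subunits has a fixed place, and it closes over its client with the energy of ATP. It is best known for folding actin and tubulin and proteins with WD40 repeats, many of which reach it through prefoldin. HSP60 forms a barrel in the mitochondrial matrix, closed by HSP10 as a lid, and folds proteins imported from the cytosol with the help of the mitochondrial HSP70. The HSPD1 and HSPE1 genes lie head to head and are known to be induced by heat shock factor 1, which binds heat shock elements, inverted repeats of a short GAA unit. SLAM-seq marks new RNA with 4sU, which after alkylation shows up as a C where the gene has a T, so that reads with at least 1 T > C conversion (T > C reads) are enriched for RNA made during the labelling. Sequencing errors and variants can give such reads too, and this background was not measured here. A new RNA can also give reads without a conversion, since 4sU replaces only some uridines.

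Heat shock elements were looked for, as a description, in the RefSeq promoter windows of the genes (GRCh38.p14, from 250 bases before to 50 bases after each start site). Windows were listed for 9 of the 10 genes. The letters GAANNTTCNNGAA, on either strand, were found in 172 of 35116 windows of all genes (0.490%). HSPD1 was the member that held them, in 5 overlapping matches of this motif and the shorter forms GAANNTTC (6.77% of all windows) and TTCNNGAA (7.74%). TCP1 and CCT2 held GAANNTTC and CCT4 held TTCNNGAA. Either short form occurred in 13.5% of all windows. The matches are shown because their genes are compared with each other below, and capitals mark the matched letters, 5′ to 3′ on the strand of the gene.
HSPD1: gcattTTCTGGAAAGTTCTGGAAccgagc
TCP1: tgaggcGAAGGTTCaacctc
CCT2: agcgaaGAAATTTCtagtgt
CCT4: gccgctTTCTGGAAggtt
The HSPD1 stretch lay at chr2:197500062-197500090 on the minus strand, with its 18 matched bases 189 bases downstream of one of the 2 listed start sites of HSPD1, 228 bases upstream of the other and 294 bases upstream of that of HSPE1, whose own start was 105 bases from the nearer HSPD1 start on the opposite strand. The other matches lay at chr6:159789820-159789839 on the minus strand (TCP1), chr12:69585794-69585813 on the plus strand (CCT2) and chr2:61888607-61888624 on the minus strand (CCT4). A match of letters does not show that a factor binds.

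Reads on 3′ UTRs numbered from 7252597 to 9404748 in the DMSO libraries and from 7536467 to 10225448 in the C646 libraries. The T > C share of these reads was 8.79% ± 0.0637 without and 6.48% ± 0.203 with C646 (SD, n = 3 each). Levels are given below in CPM, for T > C reads or for all reads, as read counts scaled to the reads on 3′ UTRs of the same library after TMM adjustment of that total (edgeR's trimmed mean of M-values). Of the sequenced reads that passed the authors' filters, the share on 3′ UTRs was 49.7% to 51.6% in DMSO and 56.3% to 62.0% in C646. The 9 myeloid marker genes examined were all detected, with a summed level in all reads of 3818 to 4113 CPM in DMSO and 3882 to 4242 CPM in C646, most of it from LYZ (2623 to 3138 CPM). Without overlap between the groups, SPI1 went from 168 to 246 CPM in DMSO to 70.0 to 110.1 CPM in C646, CD33 from 166 to 186 CPM to 103 to 132 CPM and FLT3 from 103 to 134 CPM to 173 to 208 CPM. The 8 marker genes of other cell types summed to 3.52 to 6.44 CPM in DMSO and 10.4 to 11.7 CPM in C646, with CD3E and HBB among those at 0 in all 6 libraries and COL1A1 at 0.812 to 2.32 CPM in DMSO and 5.62 to 6.74 CPM in C646, and their part in the results was not tested. The labels do not say that the replicates were separate cultures, so the p-values measure the spread between these samples. In RNA from whole cultures, fewer expressing cells and less RNA per cell cannot be told apart.

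The mitochondrial pair rose in T > C reads, while the 8 cytosolic subunits went different ways. T > C reads of HSPE1 were 5.95-fold and those of HSPD1 3.37-fold higher with C646, among the cytosolic subunits CCT4 was 2.63-fold higher and CCT8 2.63-fold lower, and CCT2, CCT5, CCT6A and CCT7 did not pass the test. A gene was called where its adjusted p was 0.01 or less and its log2 fold change 1 or more in size (edgeR's quasi-likelihood test, Benjamini-Hochberg over the 7760 genes tested). By these cutoffs 3 of the 10 chaperonin genes were called higher, against 2.90% of all tested genes, and 1 was called lower, against 33.8% of all tested genes. Scaling the T > C reads by themselves instead of by all reads moved the median of all tested genes from -0.84 to -0.06 on the log2 scale, and then 5 of the 10 were called higher, against 8.44% of all tested genes, and CCT8 was no longer called, where 8.89% were called lower. At the adjusted p cutoff alone 9 were then higher, against 10.5% of all tested genes, and CCT8 lower, against 10.4%.

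**Figure D1:**
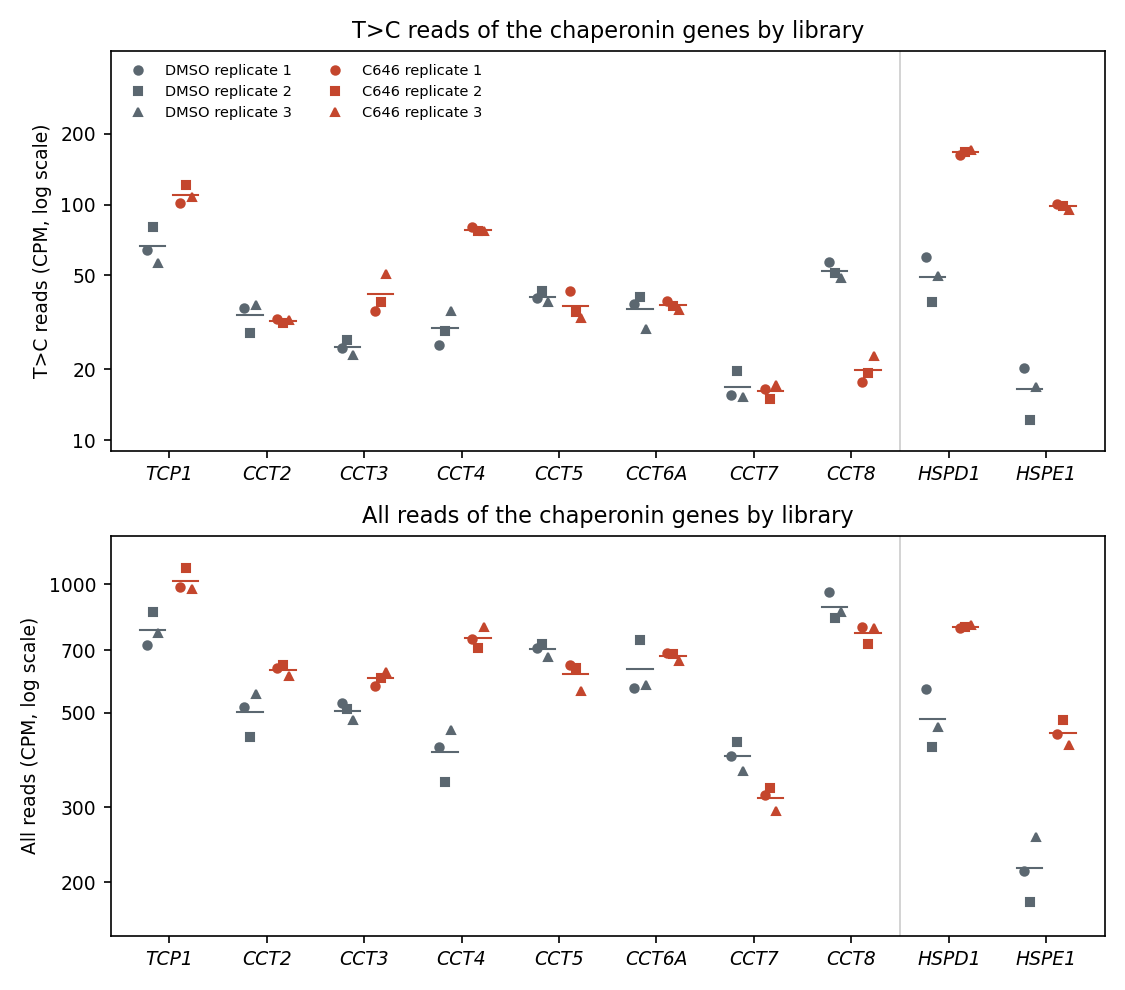
Levels of T > C reads (top) and all reads (bottom) of the 10 chaperonin genes in CPM on a log axis. Grey marks are the 3 DMSO libraries, red marks the 3 C646 libraries and short lines the group means, with the cytosolic subunits left of the vertical line. In T > C reads all C646 libraries lay above all DMSO libraries for TCP1, CCT3, CCT4, HSPD1 and HSPE1 and below them for CCT8.

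HSPD1 encodes HSP60, the barrel of the mitochondrial chaperonin. Its 3′ UTR (Entrez 3329, chr2:197486584-197487045, minus strand, GRCh38) had 59.6, 38.6 and 49.8 CPM of T > C reads in DMSO replicates 1, 2 and 3 and 163, 167 and 171 CPM in C646 replicates 1, 2 and 3. Every treated library lay above every control library, and the treated libraries were closer to each other than the controls, among which replicate 2 was lowest. The log2 fold change was 1.75 ± 0.16 (SE), with an adjusted p of 1.85e-10 by the same edgeR quasi-likelihood test, Benjamini-Hochberg adjusted, and it was larger than that of 98.4% of the genes tested. In all reads HSPD1 had 569, 416 and 463 CPM in DMSO and 790, 793 and 801 CPM in C646. That rise, by 0.72 ± 0.14 (SE) on the log2 scale, passed the adjusted p cutoff but not the fold cutoff (adjusted p = 0.00172, edgeR's quasi-likelihood test). The adjusted p was 0.0104 without DMSO replicate 3 and 0.0128 without C646 replicate 2 in edgeR's test, so that this pass rested on either library.

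HSPE1 encodes HSP10, the lid that closes the HSP60 barrel. Its 3′ UTR (Entrez 3336, chr2:197503260-197503463, plus strand) had 20.3, 12.2 and 16.8 CPM of T > C reads in DMSO and 101, 99.0 and 95.03 CPM in C646. The groups did not overlap, and DMSO replicate 2 was again the lowest library. The log2 fold change of 2.57 ± 0.18 (SE) was larger than that of 99.1% of the genes tested, with an adjusted p of 8.95e-13 by edgeR's quasi-likelihood test. In all reads HSPE1 had 213, 180 and 255 CPM in DMSO and 445, 479 and 420 CPM in C646, a log2 fold change of 1.05 ± 0.15 (SE) with an adjusted p of 0.000183. HSPE1 was thus the member called in all reads, where 5.72% of the 10851 genes tested were called higher. This call rested on DMSO replicate 2, without which the log2 fold change was 0.94 and under the fold cutoff, with an adjusted p of 0.00088 in edgeR's test.

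The share of a gene's reads that carry conversions needs no scaling between libraries. For HSPD1 it was 10.5%, 9.27% and 10.8% in DMSO and 20.6%, 21.0% and 21.3% in C646. For HSPE1 it was 9.51%, 6.76% and 6.57% in DMSO and 22.7%, 20.6% and 22.6% in C646. The groups did not overlap for either gene, and DMSO replicate 2 was the lowest library for HSPD1 but not for HSPE1. Among the 2997 genes that averaged 500 or more reads in a library, the HSPD1 share moved from percentile 61.8 in DMSO to percentile 96.4 in C646, and the HSPE1 share from percentile 44.8 to percentile 96.8, while the median gene had 8.41% in DMSO and 4.62% in C646. The odds that a read was a T > C read rose by 1.23 ± 0.13 (SE) on the log2 scale for HSPD1 and by 1.77 ± 0.17 (SE) for HSPE1, with adjusted p-values of 3.87e-08 and 1.31e-08 (edgeR's quasi-likelihood test with a library factor). In this test 2 of the 10 members were called higher, against 0.786% of all tested genes, and 1 was called lower, against 38.2%.

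**Figure D2:**
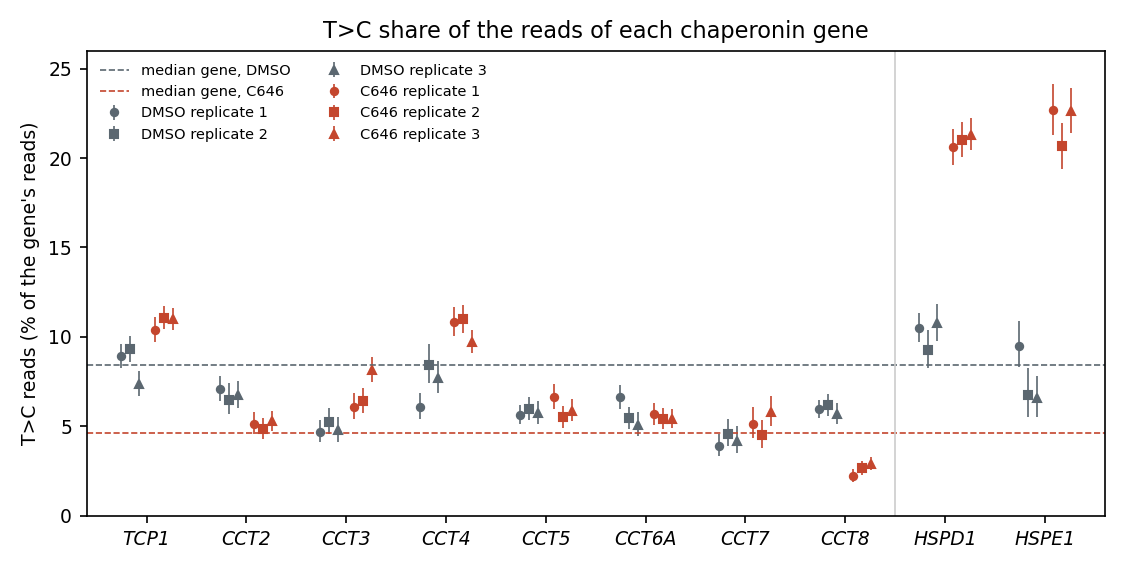
T > C share of the reads of each chaperonin gene, in % of that gene's reads, for the 3 DMSO libraries (grey) and the 3 C646 libraries (red), with 95% Wilson intervals that cover counting error alone. Dashed lines are the shares of the median gene, 8.41% in DMSO and 4.62% in C646, and the C646 shares of HSPD1 and HSPE1 lay between 20.6% and 22.7%.

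Reads without a conversion were higher with C646 for the pair as well. They went from 433 ± 67.9 to 628 ± 2.06 CPM (SD, n = 3) for HSPD1 and from 200 ± 35.8 to 350 ± 28.3 CPM (SD, n = 3) for HSPE1, without overlap between the groups. T > C reads made up 37.6% of the gain in all reads of HSPD1 and 35.3% of that of HSPE1. For CCT4, the cytosolic subunit with the largest gain, the part was 14.2%. The number of conversions per T > C read differed for HSPD1, at 1.45 ± 0.115 in DMSO and 1.99 ± 0.119 in C646 (SD, n = 3, no overlap). For HSPE1 it was 2.63 ± 0.310 and 2.59 ± 0.0728, while over whole libraries it was between 2.00 and 2.11 in DMSO and between 1.87 and 1.91 in C646. TCP1 differed too, at 1.69 ± 0.0318 and 1.89 ± 0.164 (SD, n = 3, no overlap), and 0.0601% of its reads were multimapped. The other members overlapped between the groups on this measure. HSPD1 has processed pseudogenes in the genome, and 11.4% to 16.9% of its reads were multimapped. Without multimapped reads its log2 fold change in all reads was 0.68, and the T > C reads could not be split in this way.

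TCP1, the α subunit that gave the complex its name, had 64.3, 80.0 and 56.4 CPM of T > C reads in DMSO and 102, 121 and 107 CPM in C646 (Entrez 6950, chr6:159778498-159779044, minus strand). The groups did not overlap, and TCP1 rose by 0.72 ± 0.15 (SE) on the log2 scale, under the fold cutoff, with an adjusted p of 0.000267 by edgeR's quasi-likelihood test. CCT3, the γ subunit, behaved alike, with 24.7, 26.7 and 22.9 CPM in DMSO and 35.2, 38.7 and 50.7 CPM in C646. Its groups did not overlap either, and the log2 fold change was 0.75 ± 0.18 (SE), with an adjusted p of 0.000869 by edgeR's quasi-likelihood test. CCT3 was counted over 16 annotated entries, of which that at chr1:156308961-156309303 (minus strand, Entrez 7203) held 96.0% of its reads. When T > C reads were scaled by themselves, TCP1 (1.51) and CCT3 (1.53) passed the fold cutoff too.

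CCT4, the δ subunit, which can assemble into rings on its own, was the cytosolic member that was called higher. Its T > C reads (Entrez 10575, chr2:61868127-61868691, minus strand) were 25.3, 28.9 and 35.2 CPM in DMSO and 80.4, 77.6 and 76.9 CPM in C646. The treated libraries were nearly equal and each was more than any control. The log2 fold change was 1.40 ± 0.16 (SE), with an adjusted p of 4.15e-08 by edgeR's quasi-likelihood test. In all reads CCT4 had 416, 343 and 456 CPM in DMSO and 742, 707 and 792 CPM in C646, a rise by 0.88 ± 0.14 (SE) on the log2 scale that passed the adjusted p cutoff but not the fold cutoff (adjusted p = 0.000453, edgeR). Its T > C share went from 7.41% ± 1.20 to 10.5% ± 0.699 (SD, n = 3).

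CCT8, the θ subunit, was called lower, the only one of the 10 genes to be. Its T > C reads (Entrez 10694, chr21:29056322-29056474, minus strand) were 57.0, 51.3 and 49.0 CPM in DMSO and 17.7, 19.2 and 22.8 CPM in C646, so that every treated library was below every control. The log2 fold change was -1.40 ± 0.17 (SE), with an adjusted p of 1.16e-07 by edgeR's quasi-likelihood test. With T > C reads scaled by themselves it was -0.61 and no longer past the fold cutoff. All reads of CCT8 moved much less, from 958, 832 and 861 CPM in DMSO to 794, 726 and 787 CPM in C646, and did not pass the test (log2 fold change -0.20 ± 0.13, SE, adjusted p = 0.238, edgeR). The T > C share of CCT8 was 5.95%, 6.17% and 5.69% in DMSO and 2.23%, 2.64% and 2.89% in C646. Its odds fell by 1.25 ± 0.13 (SE) on the log2 scale, close to the fall by 1.00 of the median gene.

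The other 4 subunits overlapped between the groups in T > C reads and did not pass the test. CCT2 (β, Entrez 10576, chr12:69601326-69601577, plus strand) had 28.4 to 37.3 CPM in DMSO and 31.3 to 32.7 CPM in C646. CCT5 (ε, which can also form rings on its own, Entrez 22948, chr5:10264784-10266412, plus strand) had 38.7 to 43.1 CPM and 33.0 to 42.8 CPM. CCT6A (ζ, Entrez 908, chr7:56063086-56063989, plus strand) had 29.6 to 40.4 CPM and 35.7 to 39.0 CPM. The ranges of the groups crossed for each of these 3 genes, as they did for CCT7. CCT7 (η, Entrez 10574, chr2:73252862-73253022, plus strand) had 15.3 to 19.6 CPM in DMSO and 14.9 to 17.0 CPM in C646. The normal 95% intervals of their log2 fold changes were -0.43 to 0.25 for CCT2, -0.47 to 0.19 for CCT5, -0.28 to 0.39 for CCT6A and -0.45 to 0.35 for CCT7. Each of these intervals lay above the median of all tested genes, -0.84. With T > C reads scaled by themselves, all 4 were higher at the adjusted p cutoff in edgeR's test, CCT2 by 0.70 (adjusted p = 0.00207), CCT5 by 0.66 (0.00324), CCT6A by 0.84 (0.000275) and CCT7 by 0.74 (0.00488) on the log2 scale.

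Over the whole complex the median log2 fold change of T > C reads was 0.00, with 3 subunits higher and 1 lower at the adjusted p cutoff and 4 that did not pass it. At that cutoff 3.76% of all tested genes were higher and 38.5% lower. The libraries of the groups were fully apart for 5 of the 10 chaperonin genes with C646 above DMSO and for 1 with C646 below, against 6.29% and 56.6% of all tested genes. In all reads the median of the 8 subunits was 0.18, beside -0.02 for all tested genes, and CCT4 alone among them passed the adjusted p cutoff. With the pair, 3 of the 10 were higher in all reads at that cutoff, against 9.54% of all tested genes, and by edgeR and by DESeq2 0 were lower, against 6.85%, with CCT7 lower at an unadjusted p under 0.05. With the fold cutoff 2.00% of all tested genes were called lower in all reads. C646 lay fully above DMSO in all reads for 6 of the 10 and fully below for CCT5, CCT7 and CCT8, against 23.6% and 24.0% of all tested genes.

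**Figure D3:**
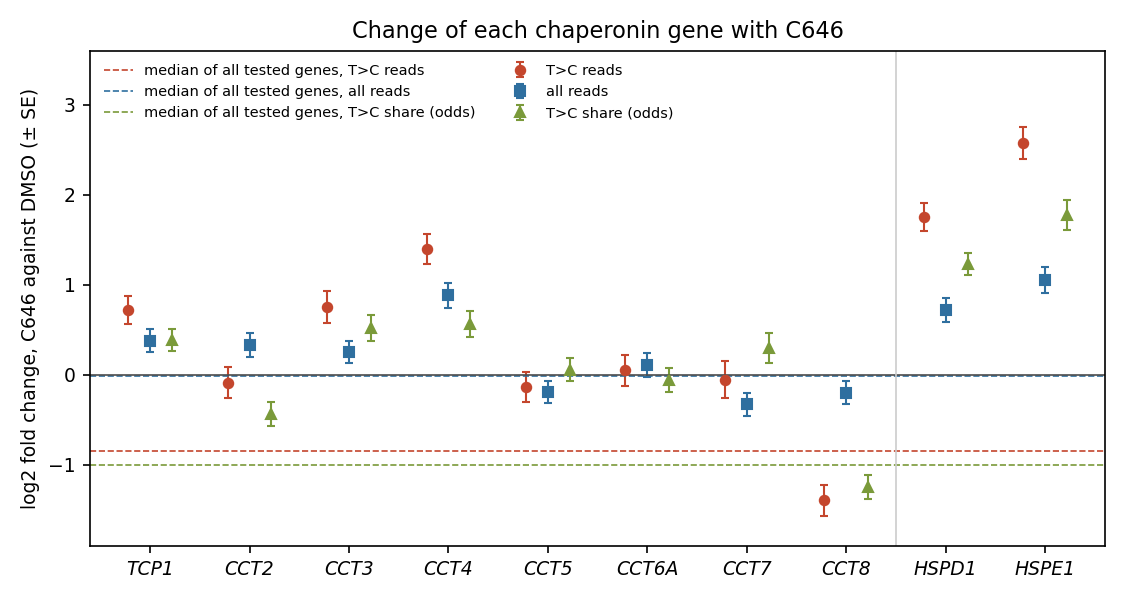
Log2 fold change with C646 against DMSO of each chaperonin gene in T > C reads (red), all reads (blue) and the odds of a T > C read (green), with bars of 1 SE. Dashed lines are the medians of all tested genes in the same colours, and the solid line is no change. HSPD1, HSPE1 and CCT4 were highest on all 3 measures, and CCT8 was the member below the median of all tested genes in T > C reads and in T > C share. In share CCT4 (0.57 ± 0.14, SE) was close to CCT3 (0.52 ± 0.15, SE), and without DMSO replicate 1 it was lower than CCT3 (0.42 and 0.49).

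In the T > C share, TCP1 (8.52% ± 1.03 to 10.8% ± 0.381), CCT3 (4.90% ± 0.294 to 6.89% ± 1.11) and CCT4 rose at the adjusted p cutoff (SD, n = 3, edgeR's quasi-likelihood test, adjusted p = 0.00956, 0.00439 and 0.00191). With the pair, 5 of the 10 members rose in share at that cutoff, against 1.13% of all tested genes. CCT2 fell in share, from 6.77% ± 0.292 to 5.09% ± 0.229 (SD, n = 3, adjusted p = 0.00734 in edgeR's test), while its T > C reads did not pass the test and its all reads went from 503 ± 59.5 to 630 ± 18.9 CPM (adjusted p = 0.0699). CCT2 and CCT8 were the 2 members lower in share at the adjusted p cutoff, against 44.6% of all tested genes. When conversions per covered T position were tested in place of reads, the adjusted p in edgeR's test was 0.0543 for CCT4, 0.0286 for CCT3 and 0.0272 for CCT2. These passes also rested on single libraries. In edgeR's test the adjusted p of TCP1 was 0.010005 to 0.0895 with any one of the 6 libraries left out, and that of CCT2 was 0.0138 to 0.0390 with any one but C646 replicate 3 left out. That of CCT3 was 0.0108 to 0.0285 without DMSO replicate 1, 2 or 3 or C646 replicate 3, and that of CCT4 was 0.0313 without DMSO replicate 1. HSPD1, HSPE1 and CCT8 passed with each library left out. CCT5 (5.77% ± 0.162 and 5.996% ± 0.567), CCT6A (5.72% ± 0.795 and 5.49% ± 0.147) and CCT7 (4.23% ± 0.343 and 5.14% ± 0.659) did not pass (SD, n = 3). The counting error of a share for 1 member in 1 library was between 0.369 and 1.41 percentage points to each side (95% Wilson).

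The subunits are joined in equal numbers in the complex, and the make-up of their summed T > C reads shifted between the groups. Read counts of different genes were not divided by length, since the libraries count 3′ ends, so these shares are compared between libraries and not between subunits. CCT8 made up 18.9%, 16.1% and 17.2% of the T > C reads of the 8 subunits in DMSO and 4.82%, 5.12% and 6.07% in C646. CCT4 made up 8.41%, 9.09% and 12.4% in DMSO and 22.0%, 20.7% and 20.5% in C646. TCP1 went from 22.1% ± 2.72 to 29.5% ± 2.34 (SD, n = 3). CCT3 rose from 8.21% ± 0.174 to 11.2% ± 2.07 (SD, n = 3), also without overlap. CCT5 fell from 13.5% ± 0.168 to 9.94% ± 1.53 and CCT7 from 5.56% ± 0.523 to 4.34% ± 0.312 (SD, n = 3, no overlap). CCT2 and CCT6A overlapped between the groups. The gains of CCT4 and TCP1 and the loss of CCT8 were larger than the spread between replicates. For CCT8, CCT4 and TCP1 the shares moved in the same direction in all reads but by less. CCT8 was at 18.4% ± 1.43 in DMSO and 14.3% ± 0.820 in C646, CCT4 at 8.44% ± 1.30 and 13.9% ± 0.968 and TCP1 at 16.3% ± 1.34 and 18.9% ± 1.03 (SD, n = 3).

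The mitochondrial pair was set against the cytosolic complex within each library, a ratio that needs no scaling. The T > C reads of HSPD1 and HSPE1 amounted to 26.5%, 15.9% and 23.4% of those of the 8 subunits in DMSO and to 72.0%, 70.9% and 70.7% in C646. The C646 libraries lay close together, all above the DMSO libraries, of which replicate 2 was lowest. The log2 of the ratio was 1.73 higher with C646, a 3.32-fold change, and 1.51 to 1.88 higher with any single library left out. In all reads the pair amounted to 16.2%, 12.2% and 15.2% of the complex in DMSO and 22.9%, 23.4% and 23.0% in C646. This change was 1.60-fold, again without overlap. No p is given for these ratios, since they are sums over chosen genes.

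**Figure D4:**
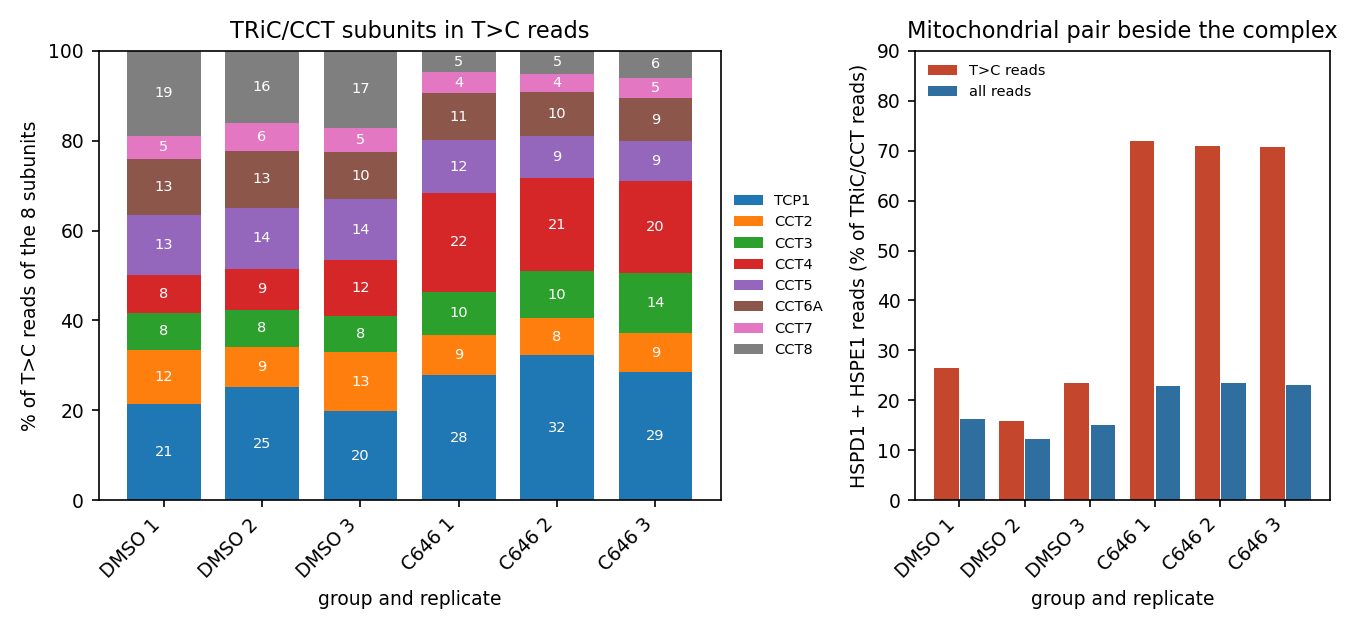
Left, make-up of the T > C reads of the 8 TRiC/CCT subunits in each library, in % of their sum. Right, summed reads of HSPD1 and HSPE1 in % of the summed reads of the 8 subunits, for T > C reads (red) and all reads (blue). With C646 the CCT8 segment was between 4.82% and 6.07% and the pair stood at 70.7% to 72.0% of the complex in T > C reads.

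The factors that pass clients to TRiC or act with it, its clients and the matrix partners of HSP60 are given beside all tested genes, of which 38.5% were lower and 3.76% higher in T > C reads at the adjusted p cutoff. Prefoldin captures nascent actin and tubulin. Of its 6 subunits 5 were tested, PFDN1 fell at the adjusted p cutoff (log2 fold change -0.63 ± 0.20, SE, adjusted p = 0.00834, edgeR's quasi-likelihood test), 4 did not pass, and PFDN6 was listed at 0 in all libraries. In all reads PFDN4 was called higher (1.24 ± 0.22, SE, adjusted p = 0.00115, edgeR) and PFDN2 was higher at the adjusted p cutoff, where 5.72% of all tested genes were called higher in all reads and 9.54% were higher at the adjusted p cutoff. Of 4 genes whose proteins bind TRiC and modulate its work, 3 were tested, and TXNDC9 (-1.44 ± 0.40, SE) and PDCD5 (-1.37 ± 0.29, SE) were called lower. With the fold cutoff 33.8% of all tested genes were called lower in T > C reads. PDCL3 was called higher in all reads, at 4.23 ± 1.29 CPM in DMSO and 10.4 ± 2.70 CPM in C646 (SD, n = 3), from 23 to 42 reads per DMSO library and with 27.4% of its reads multimapped. Of 5 genes for chaperonin-like proteins 3 were tested, with log2 fold changes between -0.81 and 0.42 that did not pass.

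The listed client genes of TRiC had a median near that of all tested genes. Of 20 listed clients 15 were tested in T > C reads, 8 were lower at the adjusted p cutoff, where 38.5% of all tested genes were lower, and 7 did not pass, with a median log2 fold change of -0.92 beside -0.84 for all tested genes. The tubulin gene TUBB4B went from 52.2 ± 9.72 to 9.44 ± 1.28 CPM (SD, n = 3), the α-tubulin gene TUBA1B from 295 ± 14.2 to 93.3 ± 10.3 CPM and the γ-tubulin gene TUBG1 from 13.2 ± 3.40 to 2.76 ± 1.12 CPM. These 3 were called lower along with TUBA1C and GNB1, 5 of the 15 tested, near the 33.8% of all tested genes called lower. Both cytoplasmic actin genes fell under the fold cutoff, ACTB by 0.75 ± 0.13 and ACTG1 by 0.81 ± 0.13 (SE) on the log2 scale. Tubulin and actin genes have near-identical copies, and at most 0.509% of the reads of those named with values here were multimapped (ACTB).

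HSPA9, the mitochondrial HSP70 that hands imported proteins on to HSP60, was the matrix partner that rose in T > C reads. It went from 22.4 ± 4.58 to 44.3 ± 5.81 CPM of T > C reads (SD, n = 3), a log2 fold change of 0.99 ± 0.18 (SE) just under the fold cutoff, with an adjusted p of 5.35e-05 by edgeR's quasi-likelihood test. Of 13 matrix partners 9 were tested, 1 rose and 4 fell at the adjusted p cutoff, against 3.76% and 38.5% of all tested genes, and 4 did not pass, with a median log2 fold change of -0.74. Those that fell were GRPEL1, the nucleotide exchange factor of HSPA9 (-1.60 ± 0.19, SE), the protease subunits CLPX and CLPP and the protease AFG3L2. In all reads HSPA9 was the 1 of 12 tested that was higher at that cutoff, against 9.54% of all tested genes. In T > C share 0 of the 9 were higher and 5 lower at that cutoff, against 1.13% and 44.6%, and the largest log2 change was 0.27. The 10 cytosolic heat shock chaperones were set beside them for comparison. HSPA1A and HSPA1B, near-identical copies, had at most 3 T > C reads in any DMSO library and entered the test through the C646 libraries alone. The other 8 had log2 fold changes from 1.22 (HSPA8) to 5.76 (DNAJB1), with a median of 3.13, and HSPD1 and HSPE1 lay inside this range, below that median.

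Genes that start within 1000 bases of a chaperonin gene on the other strand were examined next. MRPL18, a mitochondrial ribosomal protein gene beside TCP1, rose with it and by more, from 28.8 ± 1.46 to 114 ± 3.38 CPM of T > C reads (SD, n = 3), a log2 fold change of 1.98 ± 0.15 (SE). The start sites of TCP1 and MRPL18 were 210 bases apart at their nearest in RefSeq and 109 in GENCODE 44. COMMD1, whose start was 54 bases from that of CCT4 at the nearest in RefSeq and 53 in GENCODE 44, had 18 to 22 T > C reads per DMSO library and 2 to 8 per C646 library, counts at which it entered the test through the DMSO libraries alone. The readthrough gene HSPE1-MOB4, which is listed with the start site of HSPE1, had the same counts as MOB4 in every library, so that its reads cannot be told from MOB4 reads and no value is given. PSPH, next to CCT6A, did not pass (-0.04 ± 0.38, SE). The other 4 neighbours, TSACC, ATPSCKMT, PRADC1 and MIR3913-1, had too few T > C reads to be tested.

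The 3′ UTRs of HSPD1 and TCP1 overlap other entries. SNORA105A and SNORA105B are listed at the same 116 bases inside that of HSPD1 on the same strand, so that their reads, 569 to 2028 per library, cannot be told from HSPD1 reads. TCP1 overlaps ACAT2 over 215 bases on the opposite strand, and whether the counting used strand is not given in the sources used here. ACAT2 had 12 to 66 T > C reads per library beside 417 to 1083 for TCP1, and fell (log2 fold change -1.60 ± 0.39, SE, adjusted p = 0.00103, edgeR's quasi-likelihood test).

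The genes nearest to the chaperonins in their profile were sought among the 2843 genes that averaged 50 or more T > C reads in a library, by the Euclidean distance over the 6 libraries between log2(CPM + 0.5) profiles centred on the DMSO mean. Nearest to the mean of HSPD1 and HSPE1 were UBB, a polyubiquitin gene, at a distance of 0.239, the chaperone gene DNAJB6 at 0.384 and the zinc finger gene ZFR at 0.453. HSPD1 and HSPE1 were themselves 0.703 from their mean. Nearest to the mean of the 8 cytosolic subunits were HELZ at 0.148, VPS4B at 0.152 and the histone gene H3-3B at 0.171, whose log2 fold changes were between 0.12 and 0.22. The subunits themselves were further from that mean, from 0.322 for CCT6A to 2.17 for CCT4 and 2.68 for CCT8.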

How the data were processed

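SLAM-seq 3′ end libraries of MOLM-13 cells, 3 with DMSO and 3 with C646, were used. The authors used SLAM-Dunk v0.4.1 and the GRCh38 genome (the submitters' processing notes also list CASAVA 1.9). They deposited 1 table per library of 58136 3′ UTR entries, with raw counts (all reads, multimapped reads, reads with T > C conversions, conversions). The deposited tables also give a coverage signal over T positions, not normalized, and CPM, scaled by the authors' software to all filtered reads of the library. The listed number of T bases is 0 throughout C646 replicate 3 and was not used. No library without 4sU was analysed here, so the T > C background was not measured. T > C reads here have at least 1 conversion, while the study called new RNA on reads with at least 2, which the deposited tables do not separate.

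Entries were added up per gene, and 25310 of 25420 Entrez identifiers matched a symbol. The members and lists were chosen with earlier results of these data known. All 10 members were named, with genes of lists of TRiC and mitochondrial partners, clients, heat shock chaperones and cell markers that passed the adjusted p cutoff or were needed, head-to-head neighbours, genes with overlapping 3′ UTRs, and the 3 genes nearest to each mean profile. Tests used edgeR 4.0.16 in R 4.3.3 (filterByExpr, glmQLFit, glmQLFTest) with Benjamini-Hochberg adjustment over all genes tested. T > C reads were scaled by the TMM-adjusted total of all reads in the library. For the T > C share, reads with and without conversions entered a model with a term per library and an interaction of conversion with treatment. An SE was obtained from the log2 fold change and its F value. The median tested gene had 34 T > C reads in a library. Wilson intervals cover counting error only, since PCR copies of one molecule are counted separately. The scripts were tested on simulated data. Alternatives were other scalings, DESeq2 1.42.0, other filters and units, a replicate block and each library left out. Promoter windows came from RefSeq, and gene annotation from RefSeq and GENCODE 44. Further tools were Python 3.11.15 with pandas 2.3.3, and also numpy 2.4.6, scipy 1.17.1 and matplotlib 3.10.9.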

Additional observations from a re-analysis of the deposited data

How the results depend on the processing

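The calls of CCT4, HSPD1 and HSPE1 as higher in T > C reads held under all alternatives run, with log2 fold changes of 1.29 to 2.19, 1.61 to 2.54 and 2.40 to 3.37. With TMM on the T > C reads, 5 members were called higher and 0 lower, CCT2 (0.70), CCT5 (0.66) and CCT7 (0.74) turned positive and, with CCT6A (0.84), passed the adjusted p cutoff, and CCT8 stood at -0.61. Scaling by all filtered reads turned CCT2 (0.13), CCT5 (0.079) and CCT7 (0.17) in T > C reads and CCT5 (0.025) and CCT8 (0.018) in all reads. In all reads 2 members were then called higher, CCT4 (1.10) being added, and TCP1 (0.60) and CCT2 (0.55) passed the adjusted p cutoff. By that scaling 1014 of the 10851 genes tested in all reads were called higher, against 621 in the main fit. The median of all tested genes moved with it from -0.02 to 0.20. Counting T > C conversions turned CCT6A (-0.12) and CCT7 (0.013), and conversions over T coverage turned the share of CCT5 (-0.033). Without a fold cutoff, 5 members were higher in T > C reads, 3 in all reads and 5 in share, and 2 were lower in share. With each library left out, T > C calls stayed at 3 higher and 1 lower, and members higher in all reads ranged from 0 to 1. The sign of the log2 fold change then varied for CCT7 (-0.12 to 0.069, with 0.069 without DMSO replicate 2 and 0.0049 without C646 replicate 2) and CCT6A (-0.069 to 0.14) in T > C reads, and for CCT5 (-0.022 to 0.12) and CCT6A (-0.14 to 0.059) in share, and none of these 4 passed the test. The log2 ratio of pair to complex was higher with C646 than with DMSO by 1.51 to 2.08 in T > C reads and 0.56 to 0.76 in all reads over the alternatives. Same-numbered DMSO and C646 libraries deviated together only weakly (r of 0.03 to 0.07 across genes in T > C reads and -0.0015 to 0.23 in all reads). For differently numbered libraries r was lower in T > C reads, at -0.050 to 0.016, and was -0.22 to 0.15 in all reads. The labels do not say that the numbers pair the libraries, and they were not taken as pairs in the main tests. With the replicate as a block, 3 members were called higher and 1 lower in T > C reads, 1 higher in all reads, and 2 higher and 1 lower in share, as without it, while in share the adjusted p of TCP1 (0.0157) and CCT2 (0.0145) then missed 0.01. Depth limits HSPE1, with 87 T > C reads in DMSO replicate 2, and CCT7, with 113 to 172 per library.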
